A study of Drosophila melanogaster with 23 samples.

Results

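The regions described here are the binding regions of the zinc finger protein Mzfp1 that lie in the pericentromeric heterochromatin of Drosophila melanogaster. The regions of 10 peak lists were merged wherever they shared at least 1 bp, which gave 11719 merged regions on the 5 large chromosome arms, and the 295 merged regions lying inside the pericentromeric heterochromatin that the study defined by dm6 coordinates were kept. The other 11424 merged regions are called euchromatic, and no merged region crossed a boundary. The rule used position only, so that presence in the lists, fold enrichment, width and gene content are measurements that it did not touch.

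The study mapped Mzfp1 by chromatin immunoprecipitation and sequencing (ChIP-seq) in 18 ChIP libraries, with 5 control libraries that it calls preimmune. By its methods these were made with non-specific rat or rabbit antibodies, or in adults also with anti-HA antibodies. The transgenic lists came from adults 2 to 3 days old that carried a transgene in the 86F8 region, transcribed from the ubiquitous Ubi-p63E promoter and encoding Mzfp1 with HA epitopes at the C terminus. The ΔM2-HA protein lacked the second MADF domain, the Δ42-HA protein a stretch that binds CP190 and the ΔZF-HA protein a part of the C-terminal zinc finger cluster, whereas wt-HA carried the full-length protein. The study mapped a further potential CP190-binding stretch, which Δ42-HA kept, and reported that weak binding to CP190 remained without the deleted one. ΔM2-HA, Δ42-HA and wt-HA were each precipitated with anti-HA and with a rat anti-Mzfp1 antibody, and ΔZF-HA with anti-HA only. In untagged y1w1118 flies adults, also 2 to 3 days old, were precipitated with rat anti-Mzfp1, and embryos with rat and with rabbit anti-Mzfp1. The transgenic flies had the genotype CG1603attP/CyO with the transgene over TM6,Tb, so they kept 1 endogenous copy of CG1603, the gene of Mzfp1. Anti-HA therefore precipitated the tagged protein only, whereas anti-Mzfp1, raised against the N-terminal part, could precipitate endogenous and tagged protein together, and their shares in a peak cannot be told apart. The stretch missing from Δ42-HA lies inside the part used to raise anti-Mzfp1, whereas the second MADF domain lies outside it. How well anti-Mzfp1 read Δ42-HA was not tested. The amount of transgenic protein in the adults was not measured in these files. From immunoblots of adults the study reported several times more Mzfp1 in the wt-HA line than in y1w1118. Against wt-HA it reported more ΔM2-HA, less Δ42-HA and a roughly similar amount of ΔZF-HA. The part of these amounts in the ratios below was not tested.

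Each condition was represented by 1 list, so no difference between lists had a replicate check. The 3 anti-HA lists of the truncated proteins stood apart by their length, with 6148 (ΔM2-HA), 6116 (Δ42-HA) and 6166 (ΔZF-HA) regions on the 5 arms, against 511 for wt-HA with anti-HA. Results that rest on them are given below with and without them. Wilson 95% intervals are given for shares, and they cover counting error only, because regions of a list are not independent and PCR reads are not independent molecules.

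Pericentromeric heterochromatin flanks the centromeres. It is packed with nucleosomes methylated at lysine 9 of histone H3 and with the protein HP1, it is rich in transposable elements and satellite repeats, and it holds few genes, among them essential and housekeeping genes that are transcribed in this setting. C2H2 zinc fingers bind DNA by sequence, MADF domains occur in transcription factors and chromatin proteins of Drosophila, and CP190 is a partner that many architectural zinc finger proteins bring to promoters and insulators. Reads without a unique position had been removed before peak calling, so satellites and young repeat copies are outside what these lists can show.

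The sequences under the strongest heterochromatic regions are shown first, because the regions found in every list shared a sequence more often than the other heterochromatic regions did. A 15 bp matrix trained on the 100 euchromatic y1w1118 adult regions of highest fold enrichment (seed CAAGATAG, so that no heterochromatic region trained it) had a match within 100 bp of the summit in 14 of the 21 heterochromatic regions present in all 10 lists (66.7%, interval 45.4 to 82.8%), in 1 of the 43 present in 7 to 9 lists (2.33%, interval 0.412 to 12.1%) and in 6 of the 231 present in fewer. Euchromatic regions present in all 10 lists matched at a like share, 16 of 29 (55.2%, interval 37.5 to 71.6%), but all of those 29 except 1 had trained the matrix. In euchromatin 12.3% of the 332 regions in 7 to 9 lists matched, and 21 of the 286 among them that were outside the training set. Windows 2000 bp away from the heterochromatic summits held a match in 1.19% of 590 cases, and windows at all transcription starts in 6.22% of 386 heterochromatic and 2.19% of 23012 euchromatic starts. The use of 100 training regions and the split by number of lists were chosen after values were seen, so they are given with no test. Examples from regions present in all 10 lists, on 2L, 3L and 3R, are printed below from the RefSeq release 6 assembly (dm6), 5′ to 3′ on the strand of the match, with the 15 matched bases in capitals and 7 bases on either side in lower case. Each lay within 91 bp of a transcription start, and the matches at Slmap, RpL5 and CG40228 overlapped an annotated UTR.
Slmap, chr2L:22579094-22579122, minus strand, 36 bp from the nearest start: atatttcCGTCAAAATAGCGACaatcaac
Tim23, chr2L:23313655-23313683, plus strand, 91 bp from the nearest start: aactgtgCGTCAAGATAGCATCactcggt
RpL5, chr2L:22536723-22536751, plus strand, 50 bp from the nearest start: caatataAGGCAAGACAGCGTCaaaggca
vtd, chr3L:27136494-27136522, minus strand, 17 bp from the nearest start: tttaaaaTGTCAAGATAACAAAacaaaag
CG40228, chr3L:27083898-27083926, plus strand, 6 bp from the nearest start: ccgaaaaTGCTAAGATAACGAAatatttt
CG41128, chr3R:3750322-3750350, minus strand, 27 bp from the nearest start: cgatgtgCGTCAAGATAACGTCgataagt

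A second sequence, the matrix trained as planned on the 500 euchromatic y1w1118 regions of highest fold enrichment (seed CGATAGTA), was found in 15 of the 295 heterochromatic regions, of which 1 was present in all 10 lists. Of these 15, 4 were on the X chromosome, where they were 4 of only 9 heterochromatic regions. The X examples are printed because 2 of them, asRNA:CR45009 and Coa7, were in no anti-HA list, and the one at eIF4B, a translation initiation factor, because it was in 8 lists, more than any other region with this match except vtd. Capitals again mark the match, which overlapped a UTR at ATbp and Coa7.
ATbp, chrX:23105986-23106014, minus strand, 6 lists: tgggcacTGTCGATAGTATCGAttaatca
asRNA:CR45009, chrX:23007608-23007636, plus strand, 3 lists: ttttctaAATCGATAGCATTCCagctctg
Coa7, chrX:23013404-23013432, minus strand, 3 lists: ggctatgCATCGATATTTTGCTcataatt
eIF4B, chr3L:27858276-27858304, plus strand, 8 lists: atatcgtTATCGATATTTATTTcgggctt

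The first question was how much of the binding lay in pericentromeric heterochromatin and where. The heterochromatic intervals made up 12.9% of the 5 arms and held 17.2 regions per Mb, against 99.0 per Mb in euchromatin. Annotated genes were sparser there too, with 17.2 genes per Mb in heterochromatin and 154 in euchromatin. Regions were densest on 2L, with 58 regions (38.3 per Mb), followed by 2R with 146 (27.0 per Mb), 3L with 58 (11.3 per Mb), X with 9 (9.85 per Mb) and 3R with 24 (5.75 per Mb). 2R alone held 49.5% of the regions on 31.5% of the heterochromatic length.

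Summed over the 5 arms, the regions thinned out away from the euchromatin, as genes did. The first 0.500 Mb held 101 regions (40.4 per Mb, with 46.0 genes per Mb), the next 0.500 Mb held 72 (29.8 per Mb, with 30.7 genes per Mb), the stretch between 1 and 2 Mb held 50 (14.2 per Mb, with 11.1 genes per Mb) and the stretch from 2 to 6 Mb held 72 (8.26 per Mb, with 7.68 genes per Mb). Regions present in 7 to 10 lists followed the same order, at 8.80, 7.04, 2.56 and 1.83 per Mb. This decline is a description over positions of the same chromosomes, and it did not hold evenly on each arm. On 2L the 2 first stretches of 0.500 Mb held 21 regions each and the rest of the interval 16. On 2R the counts were 41 and 35 in the 2 first stretches, 23 between 1 and 2 Mb, 4 between 2 and 3 Mb and 43 beyond 3 Mb, so that regions became frequent again after a sparse stretch.

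**Figure D1:**
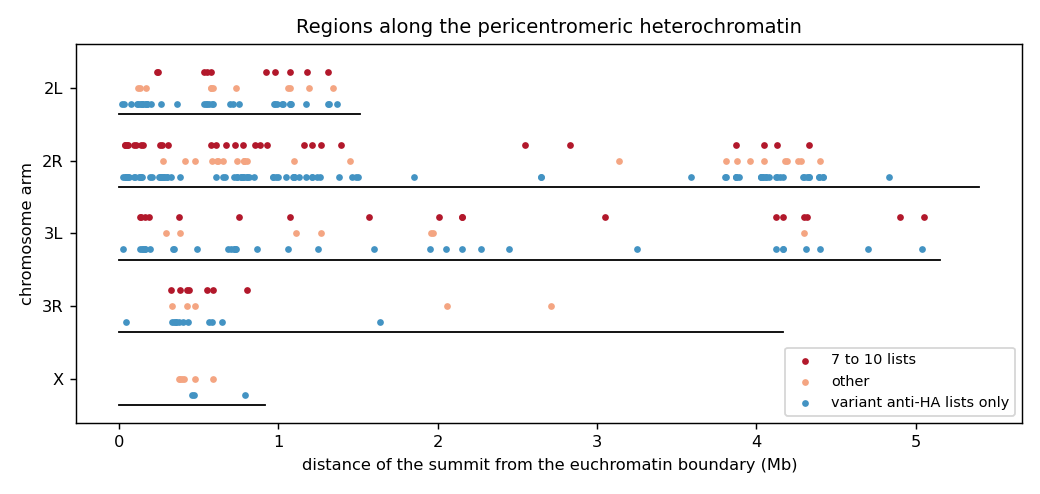
Position of the 295 heterochromatic regions on the 5 arms, as distance from the euchromatin boundary in Mb (horizontal axis); each black line is the length of the heterochromatic interval of an arm, and the 3 classes of marks are regions present in 7 to 10 lists (64), regions only in the anti-HA lists of the truncated proteins (178) and all others (53). Regions lie along the whole interval on 2L and mostly in 2 separate stretches on 2R, and X has none in 7 to 10 lists.

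Genes were covered more often in heterochromatin than in euchromatin. Of the 295 genes with a transcription start in heterochromatin, 120 (40.7%, interval 35.2 to 46.4%) had a start within 200 bp of a region, against 26.5% of 17751 genes in euchromatin. Among protein-coding genes it was 89 of 156 (57.1%, interval 49.2 to 64.6%), against 30.4% of 13709. The gap was wider for regions present in 7 or more lists, which covered the start of 65 heterochromatic protein-coding genes (41.7%) and of 3.91% of the euchromatic ones. In the y1w1118 adult list alone the shares were 44.9% in heterochromatin and 14.6% in euchromatin.

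The share differed between gene classes and arms. Non-coding RNA genes were covered in 25 of 85 cases (29.4%) and pseudogenes in 3 of 48 (6.25%). Of the protein-coding genes, 35 of 47 were covered on 2R (74.5%), 23 of 38 on 3L (60.5%), 6 of 11 on 3R (54.5%), 18 of 37 on 2L (48.6%) and 7 of 23 on X (30.4%). Covered protein-coding genes had a median length of 6.30 kb, and those without a region 10.3 kb. The longest covered gene spanned 396 kb and the longest without a region 1966 kb. Genes on both strands shared a region at 25 of the 91 heterochromatic regions with a promoter (27.5%), against 26.3% in euchromatin.

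Presence of the 295 regions was then compared over the 10 lists. With anti-HA, 212 were present in ΔM2-HA (71.9%, interval 66.5 to 76.7%), where 51.9% of all merged regions were present. In Δ42-HA it was 227 (76.9%, interval 71.8 to 81.4%), against 51.1% of all, and in ΔZF-HA 92 (31.2%, interval 26.2 to 36.7%), against 51.9% of all. wt-HA with anti-HA held 87 (29.5%, interval 24.6 to 34.9%), against 4.17% of all. Among the 4 anti-HA lists, ΔZF-HA was thus the one in which heterochromatic regions were less frequent than merged regions in general.

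With anti-Mzfp1 the heterochromatic share exceeded that of all merged regions in every list. That background included regions found only in the anti-HA lists of the truncated proteins. ΔM2-HA held 67 of the 295 regions (22.7%, interval 18.3 to 27.8%), against 13.1% of all merged regions. Δ42-HA held 88 (29.8%, interval 24.9 to 35.3%), against 16.4% of all, wt-HA held 100 (33.9%, interval 28.7 to 39.5%), against 13.7%, and y1w1118 adults held 75 (25.4%, interval 20.8 to 30.7%), against 13.8%. The intervals do not serve to compare these lists, because each condition had 1 list and the same 295 regions were scored in all of them. In embryos the rat antibody gave 52 (17.6%, interval 13.7 to 22.4%), against 6.20% of all, and the rabbit antibody 24 (8.14%, interval 5.53 to 11.8%), against 0.853% of all. Of the merged regions, 117 heterochromatic and 2384 euchromatic ones were in at least 1 list other than the truncated proteins' anti-HA lists. Of these, ΔM2-HA held 67 and 1470, Δ42-HA 88 and 1834, wt-HA 100 and 1510 and y1w1118 adults 75 and 1538. The embryo lists held 52 and 674 (rat) and 24 and 76 (rabbit). On this base the heterochromatic share was higher in wt-HA and embryos only, and not in ΔM2-HA, Δ42-HA or y1w1118 adults.

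**Figure D2:**
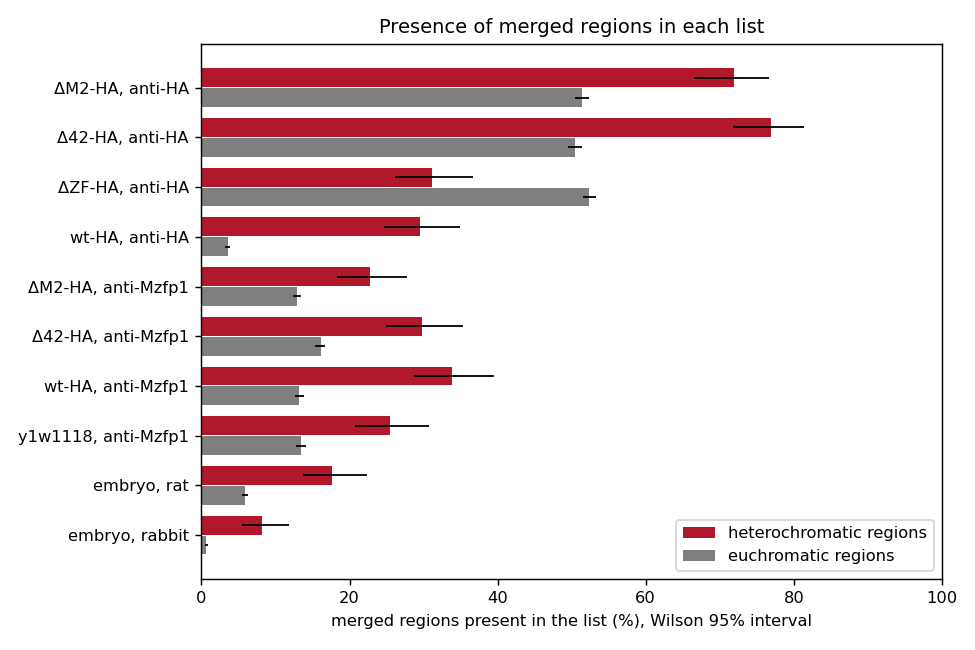
Share of heterochromatic (upper bar of each pair) and euchromatic (lower bar) merged regions present in each of the 10 lists, in percent; lines are Wilson 95% intervals, which cover counting error only. The heterochromatic share is the higher one in 9 lists, and in ΔZF-HA with anti-HA it is 31.2%, against 52.4% of the euchromatic regions. Shares are of all merged regions, those found only in the anti-HA lists of the truncated proteins included.

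Heterochromatic regions were also among the strongest of each list. Fold enrichment, the ratio of ChIP signal to local background that the peak caller gives, was ranked within each list, because it is not comparable between lists. The median heterochromatic region stood at percentile 79.8 in ΔM2-HA, 81.4 in Δ42-HA, 79.6 in ΔZF-HA and 73.7 in wt-HA with anti-HA. With anti-Mzfp1 it stood at 88.4 in ΔM2-HA, 93.1 in Δ42-HA, 91.7 in wt-HA and 85.1 in y1w1118 adults, and in embryos at 84.8 with the rat and 71.8 with the rabbit antibody. The median euchromatic region stood between 42.9 and 49.7 in these lists. Of the strongest 10 percent of regions, 51.9% were heterochromatic in wt-HA with anti-HA, 45.5% in embryos with the rabbit antibody and 37.8% in wt-HA with anti-Mzfp1, whereas all regions of these lists were heterochromatic in 20.0%, 23.3% and 6.72% of cases. In ΔZF-HA the share was 6.61% of the strongest 10 percent, beside 1.67% of the whole list, and 39.8% of its heterochromatic regions were among its strongest 10 percent.

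They were wide as well. The median merged heterochromatic region measured 686 bp (quartiles 384 and 1441, range 153 to 7429), against 499 bp in euchromatin. Within single lists the median width was 1442 bp in wt-HA with anti-Mzfp1, against 528 bp for euchromatic regions, 1396 bp against 512 bp in Δ42-HA, 848 bp against 542 bp in ΔM2-HA and 899 bp against 487 bp in y1w1118 adults. In ΔZF-HA with anti-HA the heterochromatic median of 420.0 bp was close to the euchromatic 422 bp. Of the bases covered, 14.3% in the wt-HA anti-Mzfp1 list and 24.1% in the wt-HA anti-HA list were heterochromatic, and 1.56% in ΔZF-HA.

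The number of lists that shared a region separated the heterochromatic regions into an abundant class found in few lists and a smaller one found in nearly all. Of the 295, 102 were present in 1 list (34.6%) and 74 in 2 (25.1%), whereas between 7 and 12 were present in each of 4, 5 and 6 lists. A further 15 were present in 7 lists, 11 in 8, 17 in 9 and 21 in all 10 (7.12%). Of the euchromatic regions, 0.254% were present in all 10 lists, so that 21 of the 50 regions shared by every list were heterochromatic (42%, interval 29.4 to 55.8%). The heterochromatic part was 38 of 109 among regions in 9 or more lists (34.9%), 49 of 222 in 8 or more (22.1%) and 64 of 425 in 7 or more (15.1%).

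**Figure D3:**
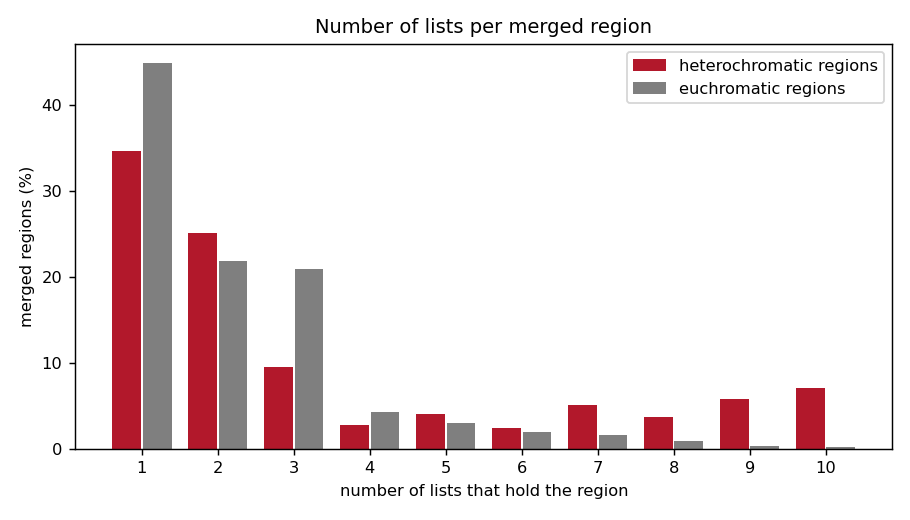
Percent of heterochromatic (left bar of each pair) and euchromatic (right bar) merged regions by the number of lists, from 1 to 10, in which they were present. Of the heterochromatic regions 7.12% are in all 10 lists, against 0.254% of the euchromatic ones.

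The 64 heterochromatic regions present in 7 to 10 lists were promoter regions. Of these, 61 came within 200 bp of an annotated transcription start, here called a promoter (95.3%, interval 87.1 to 98.4%), close to the 95.6% of the 361 euchromatic regions shared by as many lists, and the median distance from summit to nearest start was 59.0 bp. They were wider than their euchromatic counterparts, with a median of 2876 bp (quartiles 2108 and 3697) against 1512 bp. Their median GC content was 32.3%, against 45.8% for the euchromatic ones, beside 34.3% at all heterochromatic starts and 42.3% at all euchromatic starts. A transposable element overlapped 26 of the 64 (40.6%), but covered at least 50% of the region in only 3.

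The 178 heterochromatic regions present in no list other than the anti-HA lists of the truncated proteins were of another kind. They made up 60.3% of the heterochromatic regions, and this class was 79.1% of the euchromatic ones. Only 12 overlapped a promoter window (6.74%, interval 3.90 to 11.4%), against 19.7% of the 9040 euchromatic regions of this class. The summit was intergenic in 106 (59.6%), intronic in 43 and in a coding exon in 14, and the median width was 532 bp. A transposable element covered at least 50% of the region in 42 (23.6%), and transposable elements took 20.8% of their bases, beside 16% of all heterochromatic and 4.22% of all euchromatic bases. Their median GC content was 46.0%, above the 39.7% of the heterochromatic intervals as a whole.

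The remaining 53 regions were present in up to 6 lists and in at least 1 of the wt-HA, y1w1118, embryo or anti-Mzfp1 lists, and 18 of them overlapped a promoter window (34.0%, interval 22.7 to 47.4%).

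Over all 295 regions, 91 overlapped a promoter (30.8%, interval 25.9 to 36.3%), against 3708 of 11424 euchromatic regions (32.5%). The odds ratio was 0.928 (interval 0.725 to 1.19, Fisher's exact test, two-sided, p = 0.614, adjusted 0.614 over the 2 tests made). The test compares regions and not conditions. It depended on the anti-HA lists of the truncated proteins, without which 82 of 127 heterochromatic and 79.7% of 2397 euchromatic regions overlapped a promoter, with an odds ratio of 0.463 by the same test (Fisher's exact p = 1.22e-04). With the summit itself required to lie in the window it was 1.39 (exact p = 0.0161), so no direction is given for promoter content as a whole.

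The strongest heterochromatic sites are described gene by gene, and where a region covered the starts of several genes it could not be assigned to one of them. Fold enrichments of different lists stand side by side without ranking, since the lists were scaled separately, and a ratio between lists is read against the ratio at euchromatic regions shared by the same lists. With anti-Mzfp1 the euchromatic quartiles were 0.822 and 1.10 for ΔM2-HA over wt-HA (median 0.964) and 0.727 and 1.02 for wt-HA over y1w1118 (median 0.861). These are of all shared euchromatic regions and are used below unless a set is named. For ΔM2-HA over wt-HA the quartiles were 0.675 and 0.968 at euchromatic regions in 7 to 10 lists, and 0.719 and 0.801 at those in all 10. The 21 regions present in all 10 lists included the promoters of RpL5, a large-subunit ribosomal protein, of Tim23 and Tim17b, both parts of the mitochondrial inner membrane translocase, of vtd, the cohesin subunit Rad21, of Nipped-A, a shared subunit of acetyltransferase complexes, of rl, the MAP kinase ERK, of Slmap, a subunit of a phosphatase complex, of Maf1, a repressor of RNA polymerase III, and of CkIIalpha, the catalytic subunit of casein kinase II. In each of the ΔM2-HA, Δ42-HA, wt-HA and y1w1118 anti-Mzfp1 lists the lowest of the 21 stood at percentile 95.7 or above.

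At RNASEK, on 2R from 4187426 to 4190293, fold enrichment was 179 in ΔM2-HA, 278 in Δ42-HA, 182 in wt-HA and 256 in y1w1118 adults with anti-Mzfp1. The anti-HA values were 97.6 (ΔM2-HA), 141 (Δ42-HA), 18.3 (ΔZF-HA) and 155 (wt-HA). The ratio of ΔM2-HA to wt-HA with anti-Mzfp1, 0.982 at RNASEK, was within the euchromatic quartiles and above those of the euchromatic regions in 7 to 10 lists. The ratio of ΔZF-HA to wt-HA with anti-HA was 0.118, below the euchromatic median of 0.784 and within the quartiles of the euchromatic regions in all 10 lists (0.0802 and 0.119), and RNASEK had the second highest fold enrichment within the ΔZF-HA list.

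At RpL5, on 2L from 22535585 to 22539465, fold enrichment was 85.6 in ΔM2-HA, 141 in Δ42-HA, 124 in wt-HA and 160.3 in y1w1118 adults with anti-Mzfp1. The anti-HA values were 64.8 (ΔM2-HA), 90.1 (Δ42-HA), 11.5 (ΔZF-HA) and 97.3 (wt-HA). In embryos it was 15.3 with the rat and 6.19 with the rabbit antibody. At Slmap, on 2L from 22577295 to 22580179, the anti-Mzfp1 values were 35.1 (ΔM2-HA), 74.6 (Δ42-HA), 75.1 (wt-HA) and 101 (y1w1118 adults). The ratio of ΔM2-HA to wt-HA was 0.688 at RpL5 and 0.468 at Slmap, both below the euchromatic lower quartile, whereas wt-HA over y1w1118, at 0.776 and 0.741, was within the quartiles. Beside the euchromatic regions in 7 to 10 lists, ΔM2-HA over wt-HA was within the quartiles at RpL5 and below them at Slmap.

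At vtd, on 3L from 27132460 to 27137223, fold enrichment with anti-Mzfp1 was 33.1 in ΔM2-HA, 54.7 in Δ42-HA, 55.1 in wt-HA and 56.3 in y1w1118 adults. At Tim23, on 2L from 23312593 to 23316184, the values were 41.8 (ΔM2-HA), 75.1 (Δ42-HA), 61.1 (wt-HA) and 78.0 (y1w1118 adults). The ratio of ΔM2-HA to wt-HA, 0.602 at vtd and 0.683 at Tim23, was below the euchromatic lower quartile at both genes, and wt-HA over y1w1118 was within the quartiles. Beside the euchromatic regions in 7 to 10 lists, ΔM2-HA over wt-HA was below the quartiles at vtd and within them at Tim23.

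Of the regions shared by all 10 lists, 20 overlapped a promoter. The exception was an intergenic region on 3R from 3786296 to 3790614, with its summit 39464 bp from the start of CG41128. Its fold enrichment with anti-Mzfp1 was 37.5 in ΔM2-HA, 75.6 in Δ42-HA, 71.8 in wt-HA and 84.5 in y1w1118 adults, within the range of the promoters above.

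The comparison of the truncated proteins with wt-HA was made at regions present in both lists, where the heterochromatic ratio was read beside the euchromatic one, since the lists were scaled separately. With anti-Mzfp1, 64 heterochromatic regions were shared by ΔM2-HA and wt-HA, and fold enrichment was lower in ΔM2-HA at 64 of them, where 59.6% of all shared regions were lower. The ratio of ΔM2-HA to wt-HA had a median of 0.353 (quartiles 0.233 and 0.589, range 0.144 to 0.982) in heterochromatin and 0.964 at 1157 euchromatic regions. All 64 were narrower in ΔM2-HA, with a median width ratio of 0.493 against 1.00 in euchromatin, where 52.0% of all shared regions were narrower, and all 64 were narrower in both of the peak sets that the reproducibility analysis had compared for each list. Those 2 sets may be pooled pseudoreplicates, so they are no independent repeat.

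The ratio was also read at wide regions only, those of at least 1000 bp in wt-HA. There it was 0.345 for fold enrichment and 0.479 for width at 60 heterochromatic regions, and 0.819 and 0.916 at 195 euchromatic ones. By presence, 64 of the 100 wt-HA regions in heterochromatin were found in ΔM2-HA (64.0%, interval 54.2 to 72.7%), beside 76.6% of those in euchromatin.

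The same comparison for Δ42-HA with anti-Mzfp1 gave a smaller change, for a protein that lacked part of the antigen of this antibody. At 84 shared heterochromatic regions the median ratio to wt-HA was 0.935 for fold enrichment and 0.947 for width, against 1.21 and 1.02 at 1343 euchromatic regions. Fold enrichment was higher in Δ42-HA at 34 of the 84, where 74.6% of all shared regions were higher, and 57 of the 84 were narrower, where 46.9% of all were. Of the wt-HA regions, Δ42-HA held 84.0% in heterochromatin and 88.9% in euchromatin.

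With anti-HA, which reads the tagged protein alone, heterochromatic regions were not weaker in ΔM2-HA. At 84 shared regions the median ratio to wt-HA was 1.34 for fold enrichment and 1.92 for width, against 1.24 and 1.35 at 293 euchromatic regions. Fold enrichment was higher in ΔM2-HA at 58 of the 84, where 66.0% of all shared regions were higher, and 81 were wider, where 77.7% of all shared regions were. Among regions in all 10 lists the median fold ratio was 0.769, with 17 of 21 lower, beside 0.723 and 18 of 29 lower in euchromatin. Of the wt-HA regions, 96.6% in heterochromatin and 72.9% in euchromatin were present in ΔM2-HA. In Δ42-HA the ratios were 1.57 and 1.92 at 82 heterochromatic regions, and 1.26 and 1.31 at 303 euchromatic regions. Of the 82, 71 were higher in Δ42-HA, where 72.2% of all shared regions were, and 79 were wider, where 75.1% of all were. The ΔM2-HA and Δ42-HA anti-HA lists are those that stood apart by length, and the part of this in the ratios was not tested.

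ΔZF-HA differed from both. Of the 87 heterochromatic regions of wt-HA with anti-HA, 49 were present in ΔZF-HA (56.3%, interval 45.9 to 66.3%), and 32.8% of the euchromatic ones were. Fold enrichment was lower in ΔZF-HA at 49 of 49, where 74.6% of all shared regions were lower, with a median ratio of 0.154 in heterochromatin and 0.784 at 132 euchromatic regions. The width ratio was 0.434, with 48 of 49 narrower, where 77.9% of all were, against 0.816 in euchromatin. The lower heterochromatic fold ratio was not seen among regions present in all 10 lists, where it was 0.137 at 21 heterochromatic and 0.0942 at 29 euchromatic regions.

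**Figure D4:**
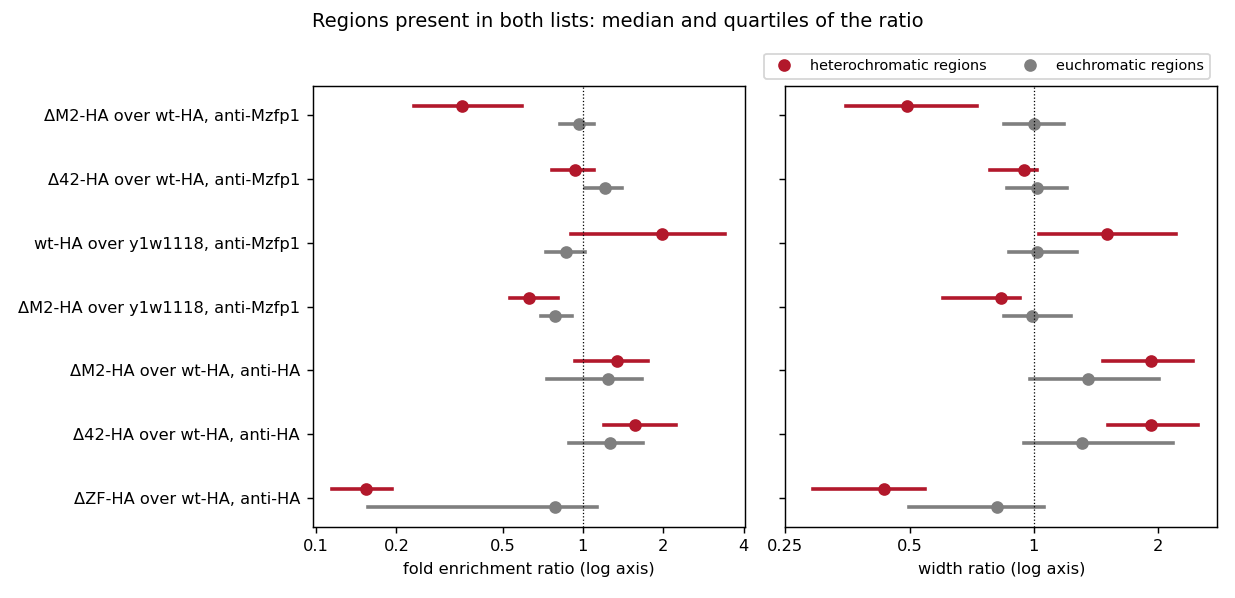
Ratios at regions shared by 2 lists, as the median (point) and quartiles (line) on a log axis, for fold enrichment (left) and width (right); heterochromatic regions are drawn above euchromatic ones in each comparison. With anti-Mzfp1, ΔM2-HA over wt-HA lies at 0.353 and 0.493 in heterochromatin and at 0.964 and 1.00 in euchromatin.

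Untagged flies were compared with the same lists. Of the 75 heterochromatic regions of y1w1118 adults, wt-HA held 71 (94.7%, interval 87.1 to 97.9%), and of the euchromatic y1w1118 regions it held 79.6%. In the other direction y1w1118 held 71.0% of the 100 heterochromatic and 81.1% of the 1510 euchromatic regions of wt-HA. At the 71 shared regions fold enrichment was higher in wt-HA at 50, where 29.5% of all shared regions were higher, and the median ratio of wt-HA to y1w1118 was 1.97 (quartiles 0.903 and 3.41), against 0.861 at 1224 euchromatic regions. The regions were wider in wt-HA at 57, where 55.0% of all were wider, with a median width ratio of 1.5 against 1.02. For Δ42-HA over y1w1118 the ratios were 1.39 and 1.31 at 74 heterochromatic regions, and 1.05 and 1.04 in euchromatin, with fold enrichment higher in Δ42-HA at 50, where 64.2% of all were higher. For ΔM2-HA over y1w1118 they were 0.626 and 0.831 at 62 heterochromatic regions, and 0.789 and 0.989 in euchromatin, with fold enrichment higher in ΔM2-HA at 4, where 14.2% of all were higher.

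The heterochromatic regions fell into 2 groups by their level in untagged flies. Among the 64 heterochromatic regions in 7 to 10 lists, y1w1118 fold enrichment had a gap with no value between 28.1 and 56.3, a range in which 26 of 351 comparable euchromatic regions lay. The 64 regions were therefore split at 40, a split chosen after the values were seen and given with no test, and ratios to y1w1118 within it are a description because y1w1118 set the split. It left 25 regions above, among them all 21 that were present in every list, and 39 below.

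Ratios are read here beside those of the euchromatic regions in 7 to 10 lists, whose medians with anti-Mzfp1 were 0.842 for ΔM2-HA over wt-HA, 0.913 for wt-HA over y1w1118, 1.05 for Δ42-HA over y1w1118 and 0.759 for ΔM2-HA over y1w1118. Those euchromatic regions were not split at 40. Above 40, median fold enrichment was 45.9 in ΔM2-HA, 90.8 in Δ42-HA, 81.5 in wt-HA and 91.2 in y1w1118 adults. The ratio of wt-HA to y1w1118 had a median of 0.843 (range 0.678 to 1.57) and was above 1 at 6 of 25. The ratio of ΔM2-HA to wt-HA had a median of 0.602 (range 0.305 to 0.982). A match of the sequence with seed CAAGATAG was present at 14 of the 25, and 24 overlapped a promoter.

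Below 40, median fold enrichment was 5.64 in ΔM2-HA, 17.2 in Δ42-HA, 20.1 in wt-HA and 6.63 in y1w1118 adults. wt-HA was above y1w1118 at 38 of 38 shared regions, with a median ratio of 3.27 (range 1.05 to 5.61) and a median width ratio of 2.09, and Δ42-HA was above y1w1118 at 37 of 39, with a median ratio of 2.56. ΔM2-HA was below wt-HA at 36 of 36, with a median ratio of 0.251 (range 0.144 to 0.577), and its median ratio to y1w1118 was 0.791. Low y1w1118 values defined this group, and the euchromatic regions were not selected in that way. No difference from the euchromatic ratios to y1w1118 is therefore drawn here. A match was present at 1 of the 39, at Nubpl, and 37 overlapped a promoter.

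**Figure D5:**
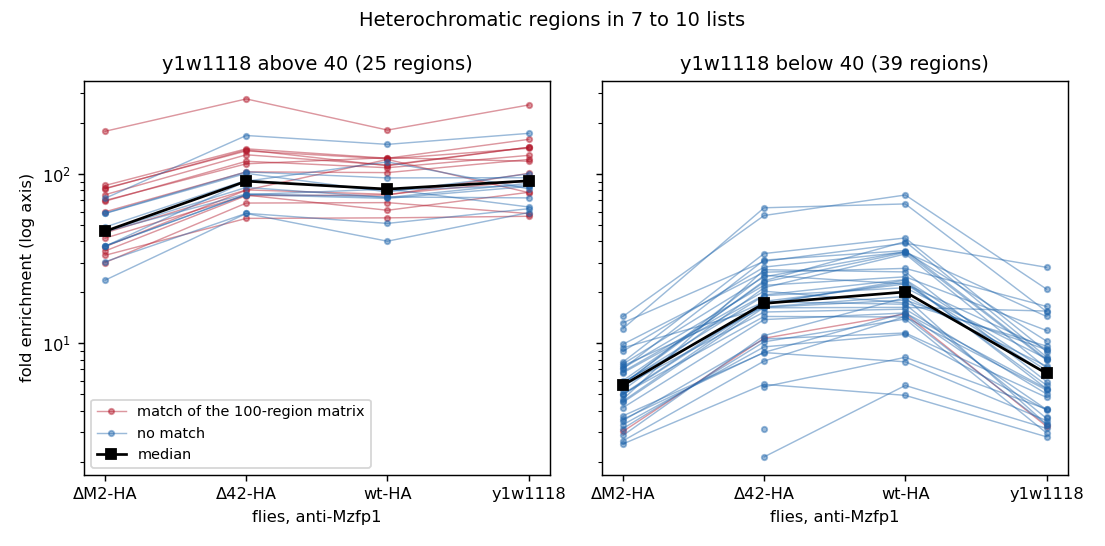
Fold enrichment (log axis) with anti-Mzfp1 in ΔM2-HA, Δ42-HA, wt-HA and y1w1118 adults at the 64 heterochromatic regions present in 7 to 10 lists; the left panel holds the 25 regions above 40 in y1w1118 and the right panel the 39 below. Thin lines are regions, in red where the sequence with seed CAAGATAG was matched and in blue where it was not, and black lines are medians, which read 45.9, 90.8, 81.5 and 91.2 on the left and 5.64, 17.2, 20.1 and 6.63 on the right.

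The same 2 groups were then read with anti-HA. Fold enrichment in ΔM2-HA relative to wt-HA had a median ratio of 0.892 above 40, with 6 of 25 higher, and of 1.61 below 40, with 37 of 38 higher. In Δ42-HA it was 1.20 above 40, with 17 of 25 higher, and 2.01 below 40, with 38 of 38 higher. In ΔZF-HA it was 0.137 above 40 and 0.171 below 40, with all shared regions lower in both groups. At the euchromatic regions in 7 to 10 lists these medians were 1.19 (ΔM2-HA), 1.20 (Δ42-HA) and 0.212 (ΔZF-HA). The ΔM2-HA protein was thus detected below 40 by anti-HA, where the median ratio to wt-HA was above the euchromatic one with anti-HA and below it with anti-Mzfp1. The group below 40 held no region in all 10 lists. In euchromatin too, ΔM2-HA over wt-HA with anti-HA was higher in 7 to 9 lists (median 1.28) than in all 10 (0.723).

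Genes of the lower group included MED21, a Mediator subunit, Set1, a histone H3 lysine 4 methyltransferase, sxc, the O-GlcNAc transferase, and Spf45, a splicing factor. At MED21, on 3L from 25115227 to 25121791, a promoter shared with UQCR-11, fold enrichment with anti-Mzfp1 was 14.4 in ΔM2-HA, 56.9 in Δ42-HA, 75.2 in wt-HA and 20.9 in y1w1118 adults. The anti-HA values were 58.9 (ΔM2-HA), 77.0 (Δ42-HA), 5.35 (ΔZF-HA) and 53.5 (wt-HA). The ratio of ΔM2-HA to wt-HA at MED21 was 0.191 with anti-Mzfp1, below the euchromatic lower quartile, and 1.10 with anti-HA, near the euchromatic median of 1.24.

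At Set1, on 3L from 25105848 to 25109831, fold enrichment with anti-Mzfp1 was 2.85 in ΔM2-HA, 11.1 in Δ42-HA, 18.6 in wt-HA and 3.32 in y1w1118 adults. The peak measured 227 bp in ΔM2-HA, 1373 bp in Δ42-HA, 2167 bp in wt-HA and 274 bp in y1w1118 adults, the lowest width ratio of ΔM2-HA to wt-HA among the 64 shared regions. The anti-HA values were 16.8 (ΔM2-HA), 22.9 (Δ42-HA) and 8.24 (wt-HA), and ΔZF-HA had no region there.

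At Spf45, on 2L from 23067076 to 23069666, fold enrichment with anti-Mzfp1 was 5.28 in ΔM2-HA, 21.3 in Δ42-HA, 33.7 in wt-HA and 7.13 in y1w1118 adults, and the peak measured 510 bp in ΔM2-HA and 2471 bp in wt-HA. At sxc, on 2R from 5302985 to 5308235, the values were 4.97 (ΔM2-HA), 17.2 (Δ42-HA), 23.0 (wt-HA) and 5.65 (y1w1118 adults). The next lowest width ratios were at alpha-Cat, a component of adherens junctions, at ND-AGGG, a subunit of respiratory complex I, and within d4, a PHD finger gene. At alpha-Cat the width was 387 bp in ΔM2-HA and 1793 bp in wt-HA, at ND-AGGG 383 bp in ΔM2-HA and 1725 bp in wt-HA, and at d4 585 bp in ΔM2-HA and 2614 bp in wt-HA. At each of these 6 genes, Set1, Spf45, sxc, alpha-Cat, ND-AGGG and d4, the ratio of ΔM2-HA to wt-HA was below the euchromatic lower quartile and the ratio of wt-HA to y1w1118 above the euchromatic upper quartile. The first ratio was 0.153 at Set1 and 0.216 at sxc, and the second 5.61 at Set1 and 4.07 at sxc. All of these genes except sxc were named for a low width ratio of ΔM2-HA to wt-HA. Their low fold ratios are therefore not independent of that choice. wt-HA also enters both fold ratios, so the 2 together are a description only.

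The gene lists, made of textbook pericentromeric genes by role, were chosen with earlier results of these data known, and each gene counts as covered where one of its starts lay within 200 bp of a region. Of 13 heterochromatic genes of chromatin and transcription, 12 were covered and 11 by a region in 7 or more lists, beside 57.1% and 41.7% of all heterochromatic protein-coding genes. They were vtd and Nipped-A in 10 lists, sxc, MED21, Yeti, a chromatin protein, and Haspin, a histone H3 kinase, in 9, d4 in 8 at each of 2 starts, Set1, Parp1, the poly(ADP-ribose) polymerase, Nipped-B, the cohesin loader, and Dbp80, an RNA helicase, in 7, and CycK, cyclin K, in 5. The homeobox gene scro had no region.

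Within this group levels differed widely between genes. At Yeti fold enrichment with anti-Mzfp1 was 5.76 in ΔM2-HA, 23.4 in Δ42-HA, 39.9 in wt-HA and 8.30 in y1w1118 adults. At Nipped-A the values were 30.0 (ΔM2-HA), 67.4 (Δ42-HA), 67.8 (wt-HA) and 58.4 (y1w1118 adults). At Parp1 the values were 2.54 (ΔM2-HA), 5.72 (Δ42-HA), 4.92 (wt-HA) and 2.80 (y1w1118 adults). At all 3 genes ΔM2-HA over wt-HA was below the euchromatic lower quartile and wt-HA over y1w1118 above the euchromatic upper quartile. The ratio of wt-HA to y1w1118 was 4.81 at Yeti, 1.16 at Nipped-A and 1.76 at Parp1.

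All 4 translation genes were covered, beside 57.1% of all heterochromatic protein-coding genes, RpL5 by a region in 10 lists, RpL15 and RpL38 in 9 and eIF4B in 8. At RpL15, on 3L from 27264443 to 27268420, fold enrichment with anti-Mzfp1 was 58.7 in ΔM2-HA, 103 in Δ42-HA, 94.9 in wt-HA and 95.2 in y1w1118 adults. At RpL38, on 2R from 4516080 to 4520694, the values were 7.07 (ΔM2-HA), 31.0 (Δ42-HA), 35.3 (wt-HA) and 8.07 (y1w1118 adults). The ribosomal protein genes thus fell on both sides of the split, RpL5 and RpL15 above and RpL38 below.

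Of 10 genes of signalling and trafficking, 9 were covered and 6 by a region in 7 or more lists, beside 57.1% and 41.7% of all heterochromatic protein-coding genes. They were rl and Slmap in 10 lists, Gprk1, a G protein-coupled receptor kinase, in 9 and cta, a G protein subunit, in 8. In 7 lists were lt, a subunit of the vesicle tethering complex HOPS, and Atf6, a stress-response factor of the endoplasmic reticulum. The others were uex, a CNNM family transport protein, in 6, Snap25, a SNARE protein, in 5 and p120ctn, a catenin, in 4. The piRNA factor AGO3 had no region. At rl, on 2R from 1068738 to 1074006, fold enrichment with anti-Mzfp1 was 37.2 in ΔM2-HA, 80.4 in Δ42-HA, 122 in wt-HA and 77.7 in y1w1118 adults. rl was one of the 6 of 25 regions of the upper group at which the ratio of wt-HA to y1w1118 was above 1, with 1.57.

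Neither of the 2 ecdysone synthesis genes, nvd and spok, nor any of the 4 genes of nerve and muscle, dpr21, Myo81F, Pzl and DIP-lambda, had a region at a start in any list. A region without a promoter was present on 3R from 3374144 to 3374544, 51536 bp from the start of spok, and was named after its values were seen. It was in 7 lists, with anti-HA fold enrichments of 3.76 (ΔM2-HA), 4.11 (Δ42-HA) and 2.56 (ΔZF-HA), and with 3.10 in Δ42-HA and 3.68 in y1w1118 adults with anti-Mzfp1, and 11 with the rat and 6.23 with the rabbit antibody in embryos. Both wt-HA lists and the ΔM2-HA anti-Mzfp1 list lacked it.

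Of the 87 heterochromatic regions of the wt-HA anti-HA list, 17 were in neither the y1w1118 adult nor the embryo lists (19.5%, interval 12.6 to 29.1%), against 158 of its 402 euchromatic regions (39.3%) and 35.8% of all its regions. The strongest were at CycK, with a fold enrichment of 7.70 in wt-HA with anti-HA and 9.64 with anti-Mzfp1, within CG12061, with 7.04 and 5.25, and at CG3651, with 5.93 and 8.11, followed by CG40472 and BckdhB, a subunit of branched-chain keto acid dehydrogenase. ΔM2-HA lacked a region with anti-Mzfp1 at all 5 of these. Its anti-Mzfp1 list held only 22.7% of all heterochromatic regions, and 64.0% of those in the wt-HA anti-Mzfp1 list. The 5 were also selected for absence from untagged flies. Their absence from ΔM2-HA is therefore a description and not a result about these genes.

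Some regions were found in a single anti-HA list of a truncated protein and nowhere else. ΔM2-HA had 31 of these (10.5% of the 295), where 8.37% of all merged regions were of this kind, Δ42-HA had 50 (16.9%), where 14.6% of all were, and ΔZF-HA had 11 (3.73%), where 18.4% of all were. The strongest in ΔM2-HA had a fold enrichment of 3.79, in an intron of rl, and stood at percentile 85.0 of its list. The strongest in Δ42-HA had 4.84, in an intron of conu, and was followed by regions near CkIIalpha with 4.27 and near CG10465 with 4.23, at percentiles 93.7, 90.5 and 89.9 of that list. In ΔZF-HA the strongest had 2.81, at percentile 79.6, and was an intergenic region of 154 bp that lay wholly in a transposable element, 27208 bp from lncRNA:CR46475. None of the 9 regions named by this part of the rule, 3 from each list, overlapped a promoter.

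The widest merged region, 7429 bp on 2R from 4823061 to 4830489, covered the promoters of CG17528 and CG14464. It was followed by the regions of MED21 with 6565 bp, rl with 5269 bp, sxc with 5251 bp and vtd with 4764 bp. At CG17528 the width was 3108 bp in ΔM2-HA, 5746 bp in Δ42-HA, 6129 bp in wt-HA and 6084 bp in y1w1118 adults with anti-Mzfp1. At rl it was 1860 bp in ΔM2-HA, 3229 bp in Δ42-HA, 4418 bp in wt-HA and 2157 bp in y1w1118 adults. Both genes were narrowest in ΔM2-HA, and only at rl was y1w1118 narrow too.

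The X chromosome differed from the autosomes. Its 9 heterochromatic regions were present in 1 to 6 lists, with fold enrichments between 2.38 and 7.04, and 6 overlapped a promoter. Of the 75 heterochromatic regions of y1w1118 adults, 2 were in no anti-HA list (2.67%, interval 0.734 to 9.21%), against 729 of the 1538 euchromatic ones (47.4%) and 45.3% of all. Both were on X, at asRNA:CR45009 and at a promoter shared by Rab21 and Coa7, a cytochrome c oxidase assembly factor. At asRNA:CR45009 fold enrichment with rat anti-Mzfp1 was 2.91 in Δ42-HA, 3.14 in y1w1118 adults and 4.53 in embryos. At Coa7 it was 2.74 in Δ42-HA, 2.76 in y1w1118 adults and 3.63 in embryos. ΔM2-HA and wt-HA had no region at either.

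ATbp, a gene for an AT-rich DNA binding protein, had the most widely shared X region, in 6 lists. With anti-HA, ΔM2-HA alone had a region there, with a fold enrichment of 4.10. With anti-Mzfp1 the values were 2.88 (ΔM2-HA), 4.16 (Δ42-HA), 3.45 (wt-HA) and 4.93 (y1w1118 adults), and 6.81 in embryos with the rat antibody. The other X regions were promoters of zyd, of CG17168 and CG17163, and of su(f), an mRNA 3′ end processing factor, in 1 or 2 lists, a region within CG12061 in both wt-HA lists, an intergenic region in 1 list, and a region in 28SrRNA-Psi:CR45859, a ribosomal RNA pseudogene, in 4 lists. Reads from ribosomal RNA copies can be misplaced, so the value at that pseudogene is uncertain.

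The planned test of sequence content did not pass its threshold over all regions. The matrix with seed CGATAGTA had a match at 15 of 295 heterochromatic (5.08%) and 485 of 10926 euchromatic regions outside its training set (4.44%), with an odds ratio of 1.15 (interval 0.707 to 2.0, Fisher's exact test, two-sided, p = 0.566, adjusted 0.614 over the 2 tests made). Without the anti-HA lists of the truncated proteins it was 10 of 127 against 24.0% of 1898, and the ratio of odds fell below 1 to 0.270 (Fisher's exact p = 5.94e-06). All starts held a match at 6.74% in heterochromatin and 7.81% in euchromatin. In the anti-Mzfp1 lists, embryos with the rabbit antibody aside, 6.12 to 11.9% of the heterochromatic and 28.2 to 34.3% of the euchromatic regions had one, training regions included.

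The sequence with seed CAAGATAG was matched more often in heterochromatin when all regions were counted. Of these, 21 heterochromatic (7.12%) and 446 of 11324 euchromatic regions (3.94%) matched, and without the anti-HA lists of the truncated proteins 18 of 127 and 5.18% of 2297. This matrix was added after the data were seen, so these shares are a description. The plain word TATCTTGA, searched on both strands within 100 bp of the summit, was present at 8 regions in heterochromatin (2.71%) and at 0.464% of those in euchromatin, and at 2.07% of heterochromatic and 0.530% of euchromatic starts. TATCGATA was present at 8 (2.71%) and 3.20%, and at 4.92% and 5.46% of starts. A match describes letters in a window and does not show that Mzfp1 bound there.

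Embryos with the rat antibody shared a larger part of the heterochromatic than of the euchromatic regions of y1w1118 adults. Of the 75 heterochromatic regions of y1w1118 adults, 46 were present in embryos with the rat antibody (61.3%, interval 50.0 to 71.5%), against 36.9% of the euchromatic ones. The rabbit antibody found 23 of the 52 heterochromatic regions of the rat antibody (44.2%, interval 31.6 to 57.7%), against 8.75% of the euchromatic ones. All 25 regions above 40 in y1w1118 adults were present in embryos with the rat antibody, at a median fold enrichment of 11.1, and 17 of the 39 below 40, at a median of 4.12. The rabbit antibody held 21 of the 25 and 1 of the 39.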

How the data were processed

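Per the labels and the study's methods, the authors trimmed the reads (cutadapt, sickle), aligned them to dm6 with bowtie2 (adults, paired-end) or bowtie (embryos, single-end), removed duplicates, multi-mapping reads and blacklisted regions, and called peaks with MACS2 against the preimmune control of the matching stage and antibody, at p of 1e-05 (embryos) or 0.01 (adults). In adults the irreproducible discovery rate (IDR) was then held at 0.05 between replicates and 0.01 between pseudoreplicates. The deposited files hold 1 list per condition, from 2 libraries in adults and 1 in embryos. The deposited values used were fold enrichment, a ratio of ChIP to control made by MACS2, and −log10 p, both from the authors. The adult files also hold the authors' IDR as a score, and the p scores of the 2 compared peak sets. A further 28 value columns were not used. The lists give no read totals, so the depth is unknown.

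Regions on the 5 arms were merged at an overlap of 1 bp. Genes and transposable elements came from the Ensembl annotation and the sequence from RefSeq release 6, with a promoter defined as 200 bp on either side of a start. The 15 bp matrices were searched at a rate of 0.0001 matches per position. Shares carry Wilson 95% intervals, and 2 Fisher's exact tests were adjusted by Benjamini-Hochberg. Regions named were the 15 in most lists, the highest in y1w1118 adults without anti-HA signal, the 5 highest in wt-HA with anti-HA that untagged flies lacked, the 3 highest particular to each truncated protein's anti-HA list, the 5 widest, the 5 lowest width ratios of ΔM2-HA to wt-HA, all on X, and genes of the gene lists. Tim23, CkIIalpha, Nubpl and the region near spok were named after their values were seen. Members and lists were chosen with earlier results of these data known. Procedures were tested on simulated regions with Python 3.11.15, numpy 2.4.6, pandas 2.3.3, scipy 1.17.1 and matplotlib 3.10.9.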

Additional observations from a re-analysis of the deposited data

Results flagged for a closer look

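Peaks on the Y chromosome or on unplaced scaffolds lay outside the comparisons above, because these sequences have no defined pericentromeric interval, and every list held some. The anti-HA lists held 30 (ΔM2-HA), 24 (Δ42-HA), 32 (ΔZF-HA) and 23 (wt-HA). The anti-Mzfp1 lists held 8 (ΔM2-HA), 14 (Δ42-HA), 14 (wt-HA) and 4 (y1w1118 adults), and the embryo lists 3 with the rat and 9 with the rabbit antibody. No control list was used here to set a background for them.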

How the results depend on the processing

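No paired analysis was possible because each condition had 1 list, and no replicate could be left out. Of 57 alternatives, 34 left the result as reported, and the cause of the others was not tested unless the alternative used fewer regions. Without the anti-HA lists of the truncated proteins 127 heterochromatic regions remained of 295. With every list cut to its strongest 103 regions, heterochromatic regions were present in 53 (ΔM2-HA), 53 (Δ42-HA), 29 (ΔZF-HA) and 40 (wt-HA) cases with anti-HA, in 28 (ΔM2-HA), 37 (Δ42-HA), 40 (wt-HA) and 27 (y1w1118) with anti-Mzfp1, and in 27 in embryos with the rat antibody, so ΔZF-HA was below wt-HA here. When a peak had to cover at least 50% of the merged region, the numbers fell to 36 (ΔZF-HA) and 43 (wt-HA) with anti-HA, to 25 (ΔM2-HA) and 39 (y1w1118) with anti-Mzfp1, and to 9 (rat) and 3 (rabbit) for embryos. The odds ratio for promoters was 0.739 with a 500 bp window and 0.463 without the anti-HA lists of the truncated proteins, and turned to 1.39 where the summit had to lie in the window. For the sequence with seed CGATAGTA it turned to 0.934 within 50 bp and to 0.270 without those 3 lists. For the sequence with seed CAAGATAG, chosen after the data were seen, it was 1.87, and 3.02 without those lists. Sites in repeats without uniquely placed reads, and sites under the peak callers' thresholds, are outside what these lists can show.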
